A study of Rattus norvegicus with 19 samples.

Results

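Gene expression in the left ventricle was compared between rats that received enalapril plus paricalcitol (4 arrays, called the combination) and rats that received enalapril plus vehicle (3 arrays, called enalapril), so that the groups differed by paricalcitol. These 7 arrays are all those of both groups, of 19 in the series. Every rat was a male Dahl salt-sensitive rat (SS/Hsd), which become hypertensive on dietary salt, and ate 6% NaCl from 6 weeks of age. After 5 weeks of that diet both groups were treated for 4 weeks and were 15 weeks old when the hearts were taken. Enalapril was delivered at 90 ug a day by osmotic pump in both groups, a dose selected so as not to lower blood pressure. Paricalcitol was injected into the peritoneum at 200 ng, 3 times a week, and the enalapril group received the solvent alone. Rats given vehicle or paricalcitol without enalapril (4 arrays each), under the same diet and times, were the only other groups compared. The other 4 arrays came from untreated rats, 11 weeks old after 5 weeks of the diet. They entered the normalization, the choice of probe sets, the shared estimate of spread and the averages over the series. One rat gave 1 array, an Affymetrix rat expression array hybridised with labelled total RNA.

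Enalapril inhibits angiotensin-converting enzyme, which makes angiotensin II, a hormone that constricts vessels and promotes cardiac growth and scarring. Paricalcitol is a synthetic vitamin D analog that activates the vitamin D receptor, a nuclear receptor that pairs with a retinoid X receptor on DNA. That receptor is known for repressing the renin gene and dampening inflammatory genes, while angiotensin signalling feeds many of the same growth and matrix genes. The design therefore asks what a vitamin D receptor activator adds in hearts already under low-dose enzyme inhibition.

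The deposited values were background-subtracted intensities. They were made comparable between arrays by quantile normalization and are given as log2 of the intensity plus 16, so that the lowest possible value, the floor, is 4. A difference is the mean of the combination minus the mean of enalapril on that scale, and understates the change of dim genes. Errors are the standard error (SE) from limma or the SD between arrays, with n = 4 for the combination and n = 3 for enalapril throughout.

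All 17 cardiomyocyte markers were above the floor, with a summed intensity of 198190 to 212763 in the combination and 188999 to 203207 in enalapril. Of 11 genes typical of atrial muscle, Sln alone lay at the floor on all 7 arrays, and their summed intensity was 29240 to 36974 in the combination and 35272 to 37649 in enalapril. These include genes such as Nppa that loaded ventricle also expresses. Arrays of the combination did not form a uniform group. On the first principal component of the 7 arrays (43.4% of the variance), combination 2 and 3 had scores of -23.8 and -14.5. Combination 1 and 4 had 15.7 and 8.51, and the enalapril arrays 1.04, 4.77 and 8.17, between both pairs. Red cell markers, as a mean deviation of 14 genes from their averages over the series, showed the same pairs. Their level was -0.75 and -0.66 on combination 2 and 3, 0.38 and 0.64 on combination 1 and 4, and -0.57, 0.48 and 0.06 on enalapril 1, 2 and 3. A run with this level as a covariate is given below. The part of blood content in the results was not tested beyond that run. The tissue was ground whole, so fewer cells of a type and less RNA per cell cannot be told apart. The rats of each group also carry their own run of animal numbers in the labels, and treatment and cohort cannot be told apart. Each array is a rat by the labels, so the p-values measure the spread between rats.

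No gene separated the groups at an adjusted p under 0.05 in limma: 0 of 14217 genes were called, 0.0% of those tested, and the smallest adjusted p was 0.252. At an unadjusted p under 0.05 there were 756 genes (5.32%), of which 432 were higher in the combination (3.04%) and 324 lower (2.28%). That split depended on the scaling, with 101 higher and 579 lower when arrays were not equalised, where the median of all genes was itself shifted by -0.11. The 4 combination arrays lay wholly above or below the 3 enalapril arrays for 704 genes (4.95%), 396 above (2.79%) and 308 below (2.17%). The median gene differed by 0.12 in size, against a median SE of 0.18. The rest of the text therefore describes levels and counts, and no gene named is a call.

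The contractile gene Myh6, which encodes the fast alpha myosin heavy chain of adult rodent ventricle, had the largest difference among the bright genes that were higher in the combination without overlap. Its level was 13.26, 12.14 and 11.47 in enalapril and 13.73, 14.02, 13.73 and 13.41 in the combination. All combination arrays were above all enalapril arrays, although enalapril 1 lay close to the lowest of them. The difference was 1.43 (SE 0.52, 95% interval 0.32 to 2.55, adjusted p = 0.907). Without enalapril, Myh6 averaged 12.06 with vehicle and 13.05 with paricalcitol, a difference of 0.99 (SE 0.48). Myh7, the slow beta chain that replaces it in loaded rodent hearts, was 14.09 ± 0.11 (SD, n = 4) in the combination and 14.13 ± 0.05 (SD, n = 3) in enalapril. Its difference of -0.05 had an interval of -0.19 to 0.09, at an intensity where quantile normalization leaves little room.

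Among genes with a mean of at least 7 whose groups did not overlap, of which 247 were higher and 168 lower, the 8 with the largest difference in each direction were examined. Lynx1, a membrane-anchored modulator of nicotinic acetylcholine receptors, was 7.12, 7.96 and 6.66 in enalapril and 8.56, 8.48, 8.41 and 8.41 in the combination. The combination arrays were close together and above every enalapril array, and the difference was 1.22 (SE 0.29, adjusted p = 0.735). Rgs4, which shortens signalling by G-protein-coupled receptors, had 7.17, 6.13 and 6.55 against 7.43, 7.89, 7.68 and 7.58, a difference of 1.03 (SE 0.26, adjusted p = 0.735). Its enalapril arrays were spread over more than a unit and its combination arrays were not.

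Tbc1d10c, a Ras and calcineurin inhibitor of the Rab-GAP family, was 7.09, 6.81 and 7.07 in enalapril and 8.35, 7.80, 7.59 and 8.19 in the combination (difference 0.99, SE 0.18, adjusted p = 0.252). Here the gap between groups was wider than the spread within enalapril and narrower than that within the combination. Scn4b, an accessory subunit of the cardiac sodium channel that was not among these 8 because its groups overlapped, had 8.44, 8.80 and 8.87 in enalapril and 8.80, 10.80, 10.11 and 10.15 in the combination. Combination 1 sat at the enalapril level and the other three were more than a unit above it (difference 1.26, SE 0.44, adjusted p = 0.907). The remaining genes of the higher set were Rflna (1.09, SE 0.41), Ddit4l, a stress-induced inhibitor of mTOR (1.08, SE 0.43), Apeg3 (1.06, SE 0.37) and Sox7, an endothelial transcription factor (0.98, SE 0.36). Rflna rested mostly on combination 4 at 8.94, with the other combination arrays at 6.61 to 7.29. In enalapril it was 6.30 to 6.60.

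In the other direction, Tgm1, a transglutaminase that cross-links proteins, was 8.41, 8.65 and 7.86 in enalapril and 7.82, 6.20, 6.49 and 6.16 in the combination. Combination 1 nearly touched the lowest enalapril array, and the difference was -1.63 (SE 0.73, adjusted p = 0.907). Fzd2, a Wnt receptor, had 7.97, 7.88 and 7.76 against 7.35, 5.17, 6.57 and 7.49, a difference of -1.22 (SE 0.47). Its lowest arrays were combination 2 and 3, the arrays that stand apart above.

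Cpa6, a secreted carboxypeptidase, had 8.69, 9.19 and 9.06 in enalapril and 8.66, 7.55, 7.58 and 7.98 in the combination (-1.04, SE 0.44). Dusp6, a phosphatase that switches off ERK kinases, had 9.19, 9.62 and 9.51 against 9.14, 8.23, 8.64 and 7.82 (-0.98, SE 0.56). In both genes combination 1 lay just below the lowest enalapril array. Arid5b (-1.07, SE 0.50), C8h3orf18 (-0.84, SE 0.30), Ppp1r10, a regulatory subunit of nuclear protein phosphatase (-0.73, SE 0.31), and Vwa1, a matrix protein of cartilage and nerve (-0.72, SE 0.30), complete the set. None of the 16 genes changed direction under any alternative run. Their groups did not overlap by selection, so leaving out an array could not turn the sign.

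**Figure D1:**
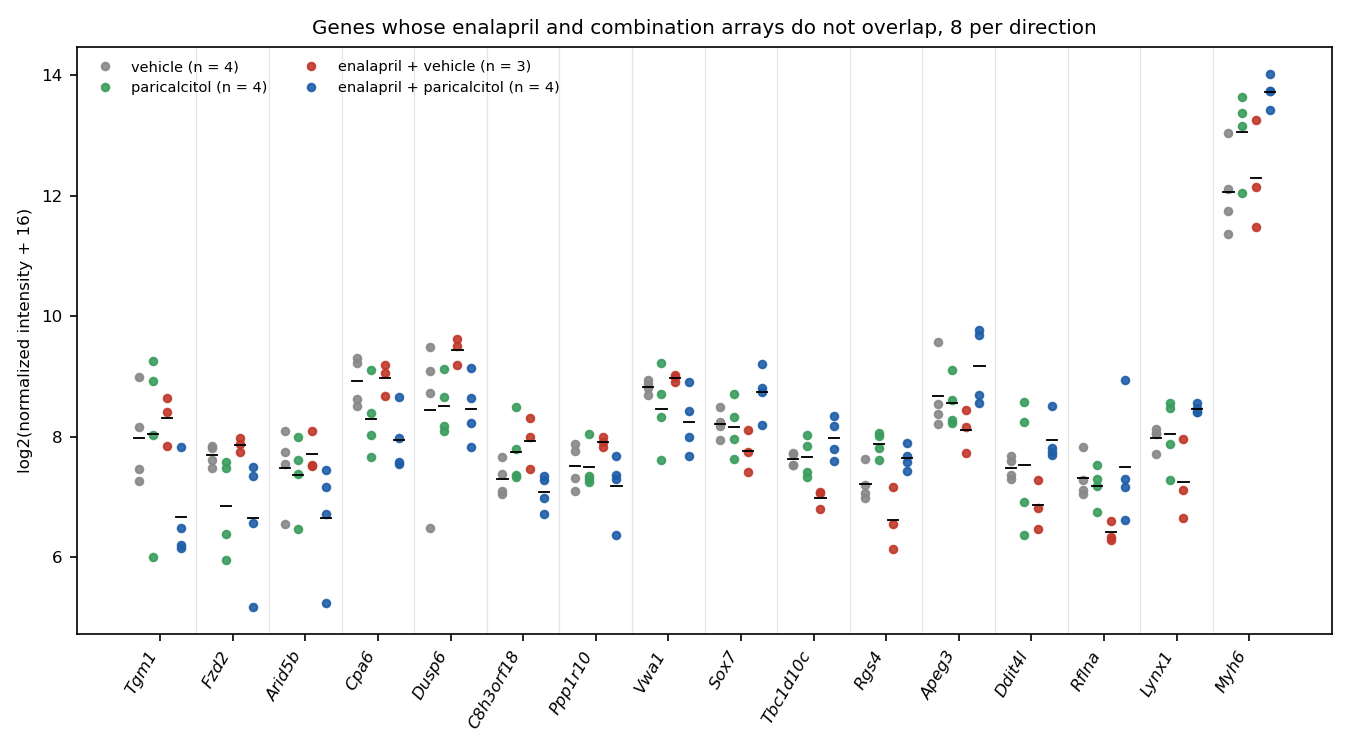
Log2(normalized intensity + 16) on each array for 16 bright genes, with vehicle and paricalcitol arrays beside them. They have the largest differences, 8 per direction, among bright genes whose enalapril plus vehicle and enalapril plus paricalcitol arrays do not overlap. Points are arrays and black bars group means. The Myh6 combination arrays lie between 13.41 and 14.02, and the Lynx1 combination arrays between 8.41 and 8.56, above all enalapril arrays of the same gene.

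By the smallest p rather than by size, 3 genes in each direction were examined. Slc37a4, the transporter that carries glucose 6-phosphate into the endoplasmic reticulum, had 7.44, 7.38 and 7.58 in enalapril and 7.94, 8.02, 7.85 and 7.82 in the combination. Both groups were tight and the difference was 0.44 (SE 0.08, adjusted p = 0.252). With vehicle and with paricalcitol alone it averaged 7.70 in both. Tnfrsf11a, which encodes RANK, the receptor for a bone and immune cytokine, lay at the floor on the 3 enalapril arrays and at 5.48, 5.55, 5.77 and 5.07 in the combination. It averaged 5.52 with vehicle, so the enalapril arrays are the ones apart, and no fold is given. Tbc1d10c, described above, was the third.

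The genes with the smallest p that were lower were all dim. Cuzd1 was 5.54, 5.71 and 5.20 in enalapril and 4.00, 4.92, 4.18 and 4.00 in the combination (adjusted p = 0.252). Trpm3, a cation channel, was 4.77, 5.19 and 4.70 in enalapril and at the floor on all 4 combination arrays. Slit1, an axon guidance ligand, was 4.98, 4.97 and 5.28 against 4.00, 4.28, 4.24 and 4.00 (adjusted p = 0.321). All of these sit within 2 units of the floor, and their size depends on the pseudocount: the difference of Cuzd1 ran from -3.49 to -0.46 over the alternatives.

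Grouping genes by function gave the broader picture. In 47 lists with 955 measured genes, 54 genes (5.65%) had an unadjusted p under 0.05, close to the 5.32% of all genes, and 0 passed the adjusted threshold. Over all genes 49.8% were higher in the combination and 45.4% lower, and 4.79% had no difference because all 7 arrays were at the floor. List medians ran from -0.53 to 0.24. Without equalisation between arrays the median of all genes was -0.11, and list and gene values given for that run include this shift. In 2 of the 47 lists the level on every combination array lay on one side of every enalapril array: sterol synthesis, higher, and inflammation, lower. Of all single genes 4.95% were apart in that way, and no list was tested.

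**Figure D2:**
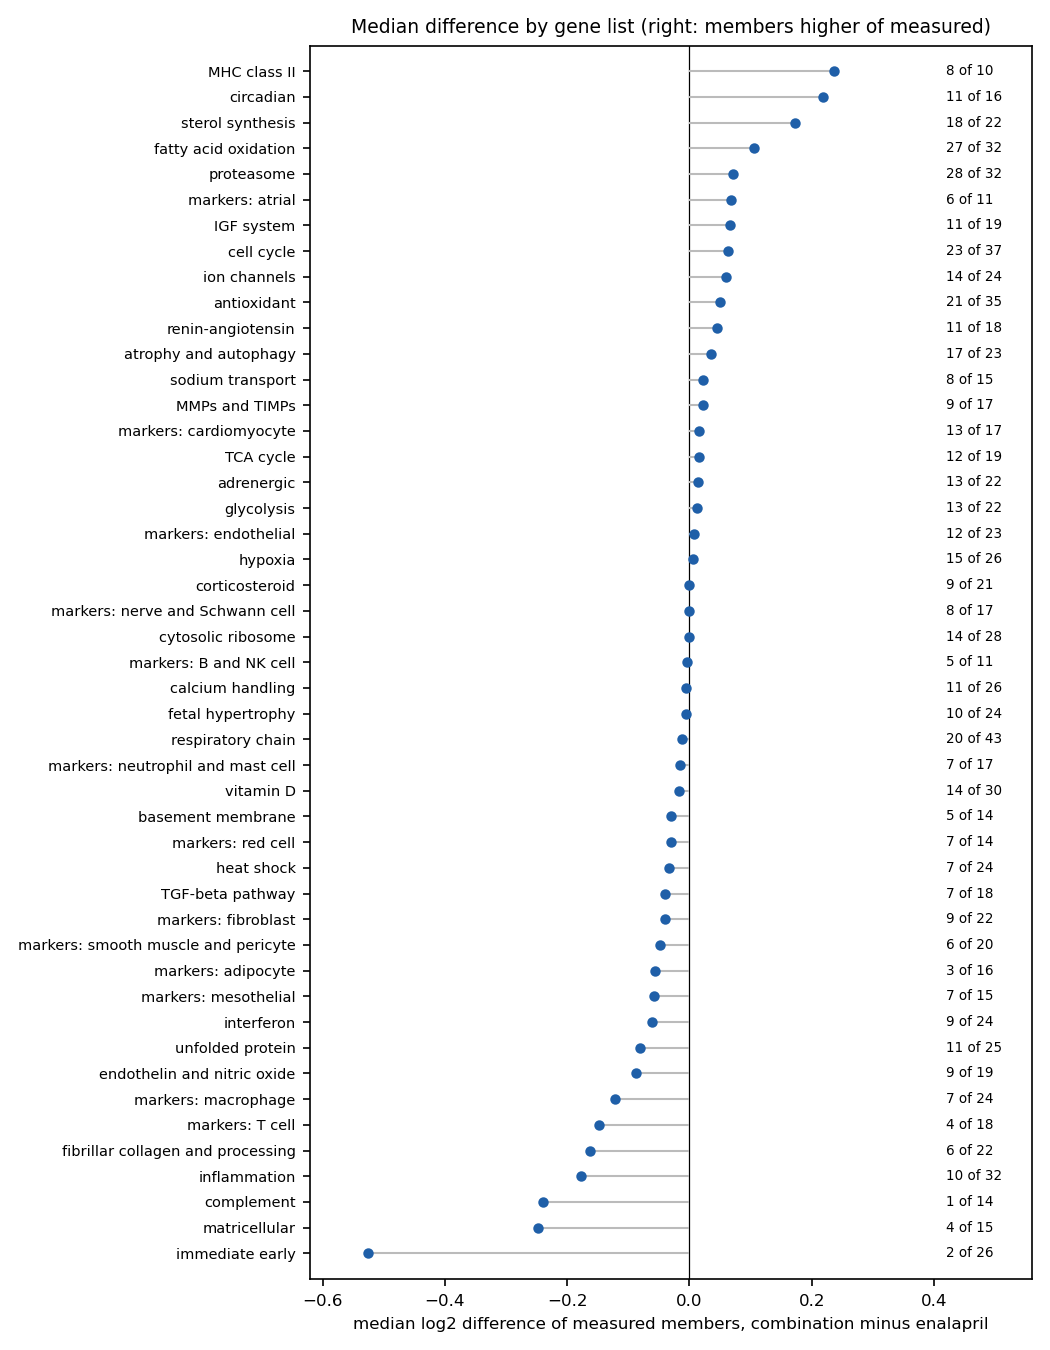
Median log2 difference (combination minus enalapril) of the measured members of each of 47 gene lists, with the number of members higher of those measured at the right. Immediate early genes have the lowest median at -0.53 and MHC class II genes the highest at 0.24, while most lists lie within 0.1 of 0. Without equalisation between arrays the median of all genes was -0.11. The list medians above 0 were then those of clock (0.09), MHC class II (0.08) and sterol synthesis genes (0.02).

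The renin-angiotensin system is the pathway enalapril acts on. Among its 18 measured members 11 were higher and 6 lower, with a median of 0.05. Without equalisation between arrays it was -0.02, which is 0.09 above the median of all genes. Over the omissions of 1 array the median ran from -0.02 without enalapril 2 to 0.12 without enalapril 1. Agt, the angiotensin precursor, lay at the floor on all 7 arrays and had no difference. Ace, the enzyme inhibited by enalapril, was 7.59, 7.72 and 8.29 in enalapril and 7.85, 6.85, 6.79 and 7.89 in the combination. Combination 1 and 4 lay inside the enalapril range and combination 2 and 3 below it (difference -0.52, SE 0.31, interval -1.19 to 0.15). Paricalcitol alone differed from vehicle in Ace by -0.42 (SE 0.29).

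Of the receptors, Agtr1a, the main angiotensin II receptor, had 5.46 ± 0.24 (SD, n = 4) in the combination and 5.61 ± 0.03 (SD, n = 3) in enalapril, and the interval of its difference was -0.67 to 0.35. Mas1, the receptor for angiotensin 1-7, was at 4.00, 4.85 and 4.00 in enalapril and 5.48, 4.84, 5.17 and 4.64 in the combination. Enalapril 2 lay inside the combination range, and enalapril 1 and 3 were at the floor. Of the peptidases, Enpep, which trims angiotensin II to angiotensin III, had 8.38, 8.32 and 8.42 against 8.47, 8.76, 8.87 and 8.67. Its groups did not overlap, and the difference was 0.32 (SE 0.11, adjusted p = 0.907). Anpep, the next peptidase in that chain, had a difference of 0.41 (SE 0.23) here and of 0.98 (SE 0.21) between paricalcitol and vehicle.

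Genes of vitamin D action and known targets divided evenly, with 14 of 30 higher, 15 lower, 1 at the floor on all 7 arrays and a median of -0.02, or 0.00 after median centring. The median was 0.04 without enalapril 1 and -0.07 without enalapril 3. Vdr, the receptor paricalcitol binds, was dim at 5.95, 6.05 and 5.39 in enalapril and 6.00, 6.10, 5.87 and 5.68 in the combination. Its groups overlapped fully, with a difference of 0.12 (SE 0.22, interval -0.36 to 0.60), and the sign turned when enalapril 3 was left out (-0.09). Rxra, its partner receptor, had 5.49, 5.88 and 6.05 against 5.98, 5.69, 5.58 and 4.00, with combination 4 at the floor. Its difference of -0.50 (SE 0.35) ran to -0.06 over the alternatives.

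Among the targets, Thbd, the anticoagulant thrombomodulin, had 9.46, 9.28 and 9.45 in enalapril and 9.59, 9.73, 9.71 and 9.47 in the combination. These groups lay side by side with no overlap (0.23, SE 0.08, adjusted p = 0.907). Cdkn1a, the cell cycle inhibitor p21 and a target raised by vitamin D in cell culture, went the other way. It was 10.35, 10.74 and 10.49 in enalapril and 9.68, 9.97, 10.47 and 9.85 in the combination (-0.53, SE 0.17, adjusted p = 0.903). Combination 3 reached the enalapril range. Paricalcitol alone gave Cdkn1a 0.33 (SE 0.16) over vehicle, and the difference between both paricalcitol contrasts was -0.87 (SE 0.23, interaction adjusted p = 0.416). Trpv5, a calcium channel, had 0.37 (SE 0.20), and Cebpb, a transcription factor, -0.37 (SE 0.18).

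Genes of cardiac load and fetal reprogramming differed little apart from Myh6. In that list 10 of 24 members were higher and 14 lower, with a median of -0.01, or -0.10 without combination 1. Nppb, the B-type natriuretic peptide and a marker of wall stress, was 13.45, 14.05 and 13.83 in enalapril and 13.65, 13.03, 13.34 and 13.70 in the combination, with overlap and a difference of -0.35 (SE 0.24, interval -0.86 to 0.16). Nppa, the atrial peptide, differed by -0.10 (interval -0.27 to 0.06). Acta1, skeletal alpha actin, differed by 0.02 (interval -0.07 to 0.12). The sign of Acta1 turned without equalisation between arrays (-0.08) and without combination 4 (-0.01). Of the calcium handling genes, 11 of 26 were higher with a median of -0.01, from -0.05 without combination 2 to 0.02 without enalapril 2. Atp2a2, the calcium pump of the sarcoplasmic reticulum, had 0.03 (interval -0.09 to 0.16), and its inhibitor Pln had 0.00 (interval -0.12 to 0.11). Their signs turned under some scalings (Atp2a2 -0.05 without equalisation, Pln 0.05 after median centring). These genes are near the top of the intensity scale, where quantile normalization limits how far arrays can differ. Prkca, a kinase that restrains contractility, had -0.15 (SE 0.13). In the ion channel list 14 of 24 genes were higher, with a median of 0.06, or 0.00 without combination 2. Without equalisation it was -0.04, which is 0.07 above the median of all genes. Scn4b had the largest difference in that list.

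Sterol synthesis genes make cholesterol from mevalonate and are switched on together by the SREBP-2 factor when cell sterol is low. The list also holds the fatty acid genes Fasn, Acaca and Scd and the regulators Srebf1, Srebf2 and Insig1. Of 22 measured members 18 were higher in the combination and 2 lower, with a median of 0.17. It was 0.13 without combination 1 and 0.26 without combination 4. Mvd and Scd were at the floor on all 7 arrays. The median was 0.13 above that of all genes when arrays were not equalised. The level of the list was -0.23, -0.07 and -0.06 on the enalapril arrays and 0.23, 0.06, 0.11 and 0.08 on the combination arrays, without overlap. It stood at 0.01 ± 0.06 (SD, n = 4) with vehicle and -0.01 ± 0.05 (SD, n = 4) with paricalcitol alone, so that on average enalapril lay below and the combination above both. The separation of the arrays did not follow the pairs seen for red cell markers.

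Of its enzymes in pathway order, Mvk, mevalonate kinase, had 4.67, 5.83 and 5.99 in enalapril and 6.52, 5.81, 6.30 and 5.66 in the combination. Enalapril 1 was low and the others overlapped (0.58, SE 0.29). Pmvk, the next kinase, had 8.20, 7.98 and 8.26 against 8.52, 8.46, 8.43 and 8.24 (0.26, SE 0.11). Only combination 4 entered the enalapril range.

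Lss, lanosterol synthase, which closes the sterol ring, had 5.93, 6.13 and 6.15 in enalapril and 6.44, 6.58, 6.08 and 7.04 in the combination (0.46, SE 0.16, adjusted p = 0.907). Combination 3 lay among the enalapril arrays and the rest above. Between vehicle (6.74) and paricalcitol alone (5.89) the difference ran the other way, -0.84 (SE 0.15). Lss had the smallest p of all genes for the difference between both contrasts, 1.31 (SE 0.21, interaction adjusted p = 0.113), and without combination 3 it alone passed. Sc5d, a late desaturase of the pathway, had 7.34, 7.31 and 7.35 against 7.81, 7.85, 7.40 and 7.90. Its groups did not overlap, and the difference was 0.41 (SE 0.17).

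Fatty acid oxidation is the main energy source of the adult heart. In that list 27 of 32 members were higher, with a median of 0.11, or -0.01 without equalisation between arrays, which is 0.10 above the median of all genes. The level of the list was 0.43 and 0.28 on combination 2 and 3 and -0.17 and -0.09 on combination 1 and 4, and between -0.03 and 0.03 on the enalapril arrays. The combination therefore lay on both sides of enalapril, and without combination 2 the median was 0.02 with 19 members higher. It was 0.19 without combination 1 and 0.20 without combination 4. Slc25a20, the carnitine carrier of the mitochondrial membrane, did separate: 10.41, 10.38 and 10.36 in enalapril against 10.80, 10.96, 10.78 and 10.47 (0.37, SE 0.13, adjusted p = 0.907). Acsl1, which activates fatty acids, had 11.74, 11.56 and 11.62 against 11.78, 12.30, 12.05 and 11.87, also without overlap (0.36, SE 0.18).

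Ppargc1a, the coactivator that drives mitochondrial genes, had 9.01, 8.89 and 8.86 against 9.11, 9.40, 9.26 and 9.12 (0.30, SE 0.17). Acaa2, the last enzyme of the oxidation cycle, overlapped, with 12.16, 12.29 and 12.04 against 12.31, 13.01, 12.76 and 12.19 (0.40, SE 0.19). Each of these was highest on combination 2. Respiratory chain genes were higher in 20 of 43 members (median -0.01, or 0.02 with cyclic loess), and this count rested on single arrays. Without combination 1, 37 of 43 were higher (median 0.06), and without combination 2 there were 7 (median -0.04). TCA cycle genes were higher in 12 of 19 (median 0.02), with 15 higher without combination 1 and 6 without combination 2. Without equalisation the TCA cycle median was -0.10, which is 0.01 above that of all genes. Glycolysis genes were higher in 13 of 22 (median 0.01, or -0.05 without enalapril 2). Without equalisation the glycolysis median was -0.11, as was that of all genes.

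**Figure D3:**
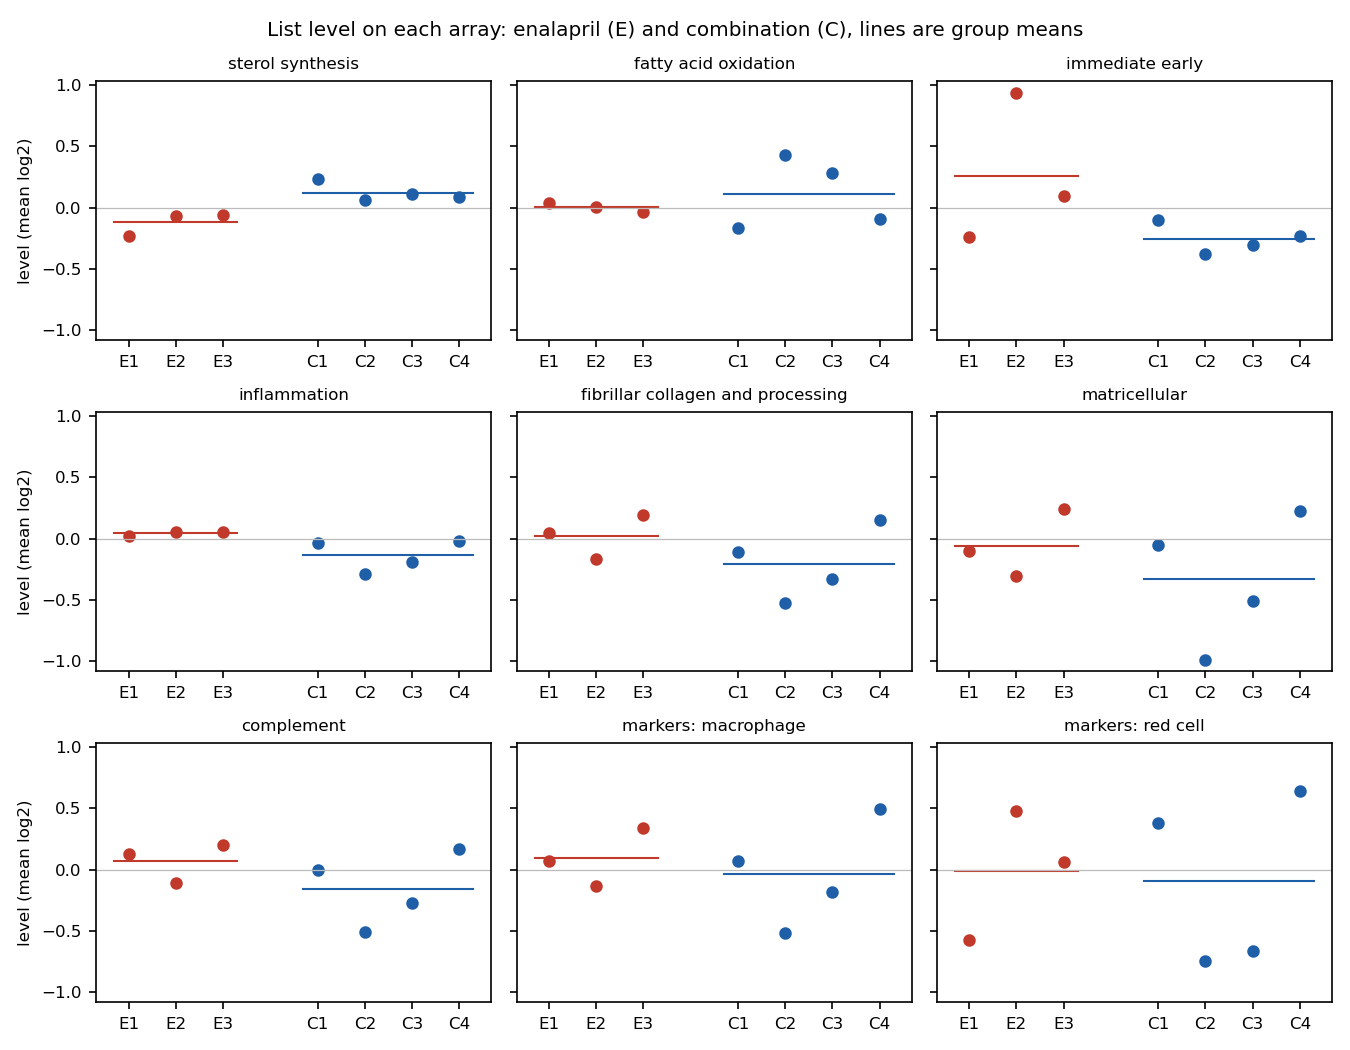
Level of 9 gene lists on the 3 enalapril (E) and 4 combination (C) arrays, as the mean over members of the log2 value minus each gene's average over 19 arrays; lines are group means. Sterol synthesis and inflammation do not overlap between groups. In fatty acid oxidation, fibrillar collagen, matricellular and macrophage genes, combination 2 and 3 lie on one side and combination 1 and 4 on the other.

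Among matrix genes, the fibrillar collagen and matricellular lists divided the combination arrays into the pairs seen above. Fibrillar collagens with their processing enzymes were higher in 6 of 22 members and lower in 16, with a median of -0.16. It was -0.06 without combination 2, -0.07 without enalapril 3, -0.30 without enalapril 2 and -0.32 without combination 4. Their level was -0.53 and -0.33 on combination 2 and 3, -0.11 and 0.15 on combination 1 and 4, and 0.05, -0.17 and 0.20 in enalapril. Col1a1, the main chain of type I collagen, was the same in both groups at 10.81 ± 0.28 (SD, n = 4) and 10.81 ± 0.47 (SD, n = 3), with an interval of -0.84 to 0.84. Col3a1 differed by 0.03 (interval -0.58 to 0.65), with a sign that turned under several alternatives, among them no equalisation between arrays (-0.08).

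Fmod, fibromodulin, which organises collagen fibrils, had 7.17, 6.85 and 6.97 in enalapril and 6.48, 6.65, 6.65 and 6.53 in the combination. Those groups did not overlap (-0.42, SE 0.13, adjusted p = 0.903). Serpinh1, the collagen chaperone HSP47, had 11.06, 10.93 and 11.06 against 10.60, 10.70, 10.76 and 10.21 (-0.45, SE 0.21). Plod2, which hydroxylates collagen lysines, had 9.30, 9.30 and 9.54 against 9.27, 8.30, 8.40 and 9.16 (-0.60, SE 0.27), and P4ha1, a prolyl hydroxylase, -0.45 (SE 0.21). These processing genes also did not overlap, and Plod2 was lowest on combination 2 and 3.

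Matricellular genes were lower in 11 of 15 members, with a median of -0.25. It was -0.07 without combination 2, -0.14 without enalapril 3 and -0.47 without enalapril 2. Ccn2, the growth factor-like CTGF, had 12.85, 13.48 and 13.22 in enalapril and 13.22, 11.49, 12.40 and 12.89 in the combination (-0.68, SE 0.39), with combination 2 far below the others. Sparc, a collagen-binding glycoprotein, had 11.87, 11.67 and 11.99 against 11.42, 11.67, 11.79 and 11.63 (-0.22, SE 0.09). Fn1, fibronectin, had -0.27 (SE 0.38), with the sign turned without enalapril 3 (0.05), and Vcan, versican, -0.54 (SE 0.41).

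TGF-beta genes, which instruct fibroblasts to make matrix, were higher in 7 of 18 members (median -0.04). It was -0.07 without combination 1 and -0.01 without enalapril 1. Tgfb2 had 9.00, 10.30 and 9.26 in enalapril and 9.50, 6.98, 8.36 and 8.34 in the combination (-1.22, SE 0.50), a range of more than 2 units within the combination alone. Tgfb1 had -0.37 (SE 0.29, interval -0.99 to 0.24). Fibroblast markers were higher in 9 of 22 (median -0.04), and the median was 0.07 with 15 higher without combination 2, 0.05 with 13 higher without enalapril 3 and -0.18 without enalapril 2. They had a summed intensity of 39214 to 54046 in the combination and 39251 to 51293 in enalapril. Their level was -0.46 and -0.27 on combination 2 and 3 and 0.02 and 0.21 on combination 1 and 4, alongside the matrix values above, and its part in them was not tested. Some genes are counted in both: Col1a1, Col1a2, Col3a1, Lum, Dcn and Loxl1 are also in the fibrillar collagen list. Postn is also in the matricellular list.

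Inflammatory cytokines, chemokines and adhesion molecules recruit white cells into the pressure-loaded heart. Of 32 measured, 21 were lower in the combination and 10 higher, with a median of -0.18, and Il10 was at the floor on all 7 arrays. The level of the list was 0.02, 0.05 and 0.06 on the enalapril arrays and -0.03, -0.29, -0.19 and -0.02 on the combination arrays. The groups did not overlap, but combination 1 and 4 lay close to enalapril. The median with paricalcitol alone went the other way, at 0.16, with 23 of 32 members higher than vehicle. The list level was -0.10, -0.21, 0.10 and 0.54 on the paricalcitol arrays and between -0.13 and -0.03 on the vehicle arrays. Paricalcitol 1 thus lay within the vehicle range and paricalcitol 2 below it, while paricalcitol 4 was far above.

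Il1b, interleukin-1 beta, had 6.38, 6.46 and 6.36 in enalapril and 5.77, 5.84, 5.26 and 6.12 in the combination, without overlap (-0.65, SE 0.30, adjusted p = 0.907). Vcam1, an adhesion molecule of activated endothelium, had 7.82, 7.69 and 7.51 against 7.48, 6.98, 7.16 and 7.38 (-0.42, SE 0.21). With paricalcitol alone Vcam1 was 0.62 (SE 0.20) above vehicle. In both genes the gap between groups was smaller than the spread of the combination arrays.

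Tnf, tumour necrosis factor, was dim and opposite in direction: 4.00, 4.36 and 4.00 in enalapril against 4.99, 4.85, 5.04 and 5.12 (0.88, SE 0.27, adjusted p = 0.903). With vehicle it averaged 4.85, so the enalapril arrays were the low ones. Il6 lay between 4.00 and 4.86 on all 7 arrays.

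Complement genes, made by macrophages, fibroblasts and liver, were lower in 13 of 14 members, with a median of -0.24, or -0.10 without combination 2 and -0.16 without enalapril 3. C5ar1, the receptor for the C5a peptide on myeloid cells, had 8.32, 8.32 and 8.42 in enalapril and 7.87, 7.69, 7.77 and 8.11 in the combination. The groups were apart and the difference was -0.49 (SE 0.16, adjusted p = 0.903). C3, the central complement protein, had 7.20, 6.32 and 6.88 against 6.54, 5.48, 6.24 and 6.22, with overlap (-0.68, SE 0.30). Serping1, the C1 inhibitor, had -0.34 (SE 0.18) and C3ar1, the C3a receptor, -0.30 (SE 0.20). Macrophage markers varied over the same arrays. Their level was -0.52 and -0.18 on combination 2 and 3, 0.07 and 0.49 on combination 1 and 4, and 0.07, -0.13 and 0.34 in enalapril. Of 24 macrophage markers 17 were lower, with a median of -0.12 (-0.02 without combination 2, -0.04 without enalapril 3, -0.28 without combination 4 and -0.29 without enalapril 2), and their summed intensity was 6491 to 14984 in the combination and 9915 to 14040 in enalapril. Their part in the complement and inflammation values was not tested. C1qa, C1qb and C1qc are counted in both the macrophage and the complement lists.

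MHC class II genes, which present antigen to helper T cells, were higher in 8 of 10 members, with a median of 0.24. It was 0.16 without combination 4 and 0.38 without combination 1. Cd74, the invariant chain, had 11.56, 11.35 and 11.20 in enalapril and 11.33, 12.37, 12.05 and 11.72 in the combination (0.50, SE 0.35). Ciita, the master activator of these genes, had 5.15, 5.12 and 5.22 against 4.85, 5.88, 5.84 and 5.68 (0.40, SE 0.34). In both genes combination 1 was the lowest of the 7 arrays or next to it, and the other three combination arrays were the highest. Of 18 T cell markers 13 were lower and 4 higher, with a median of -0.15. It was -0.23 without combination 2 and -0.11 without enalapril 2. Cd2, a T cell adhesion receptor, had 5.78, 6.24 and 5.67 against 4.64, 5.33, 5.76 and 4.68 (-0.79, SE 0.33), and Il7r, the interleukin-7 receptor, -0.39 (SE 0.24). Their summed intensity was low, 489 to 748 in the combination and 681 to 783 in enalapril.

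Immediate early genes encode transcription factors and feedback regulators whose transcripts appear within minutes of a stimulus, growth factor or mechanical strain, without new protein synthesis. Of 26 measured 24 were lower in the combination, the lowest median of the 47 lists at -0.53. One array carried most of it: 22 of the 26 genes had their highest value on enalapril 2. The level of the list was -0.24, 0.93 and 0.09 on enalapril 1, 2 and 3, and -0.10, -0.38, -0.30 and -0.23 on the combination arrays. Without enalapril 2 the median was -0.14 with 7 members higher, and without enalapril 1 it was -0.80. Vehicle arrays had a level of -0.01 ± 0.15 (SD, n = 4) and paricalcitol arrays -0.11 ± 0.35 (SD, n = 4).

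Because these genes varied together across arrays, the promoters of 3 of them are shown, taken from RefSeq on build GRCr8. Each run covers the 250 bases before the annotated start, read 5′ to 3′ on the gene's strand. Capitals mark a cyclic AMP response element (TGACGTCA) or a CArG box, the site of serum response factor, which many genes of this class carry.
Maff, chr7:112792537-112792786, plus strand: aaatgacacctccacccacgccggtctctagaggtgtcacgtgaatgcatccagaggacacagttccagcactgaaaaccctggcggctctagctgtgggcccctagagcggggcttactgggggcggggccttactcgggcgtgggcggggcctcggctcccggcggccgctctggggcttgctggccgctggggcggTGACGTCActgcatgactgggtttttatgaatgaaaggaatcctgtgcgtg
Zfp36, chr1:92799109-92799358, minus strand: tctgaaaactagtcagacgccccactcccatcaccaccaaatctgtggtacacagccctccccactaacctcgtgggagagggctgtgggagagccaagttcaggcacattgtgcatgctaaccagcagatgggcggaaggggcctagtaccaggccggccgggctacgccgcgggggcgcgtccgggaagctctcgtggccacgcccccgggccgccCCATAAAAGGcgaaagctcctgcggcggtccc
Egr2, chr20:21054442-21054691, minus strand: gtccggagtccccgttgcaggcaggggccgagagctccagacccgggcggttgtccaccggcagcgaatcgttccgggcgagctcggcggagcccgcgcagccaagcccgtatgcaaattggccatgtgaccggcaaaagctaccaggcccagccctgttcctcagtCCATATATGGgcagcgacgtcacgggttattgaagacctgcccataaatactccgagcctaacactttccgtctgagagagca

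These are 3 of the members whose promoter held a motif. Egr1, which is not printed, held 2 CArG boxes. The element in Maff starts at base -51, the CArG box in Zfp36 at -32 and that in Egr2 at -83, counted from the start. Promoters were available for 18 of the 26 genes, each of 250 bases before and 50 after the start. On both strands TGACGTCA occurred in 4 of them, the CArG box in 5 and the AP-1 site TGANTCA in 0. Over all 33469 promoters of that length the shares were 1.83%, 1.64% and 7.33%. A match is a description of these letters and not a binding site.

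Maff, a small Maf transcription factor, had 6.72, 7.23 and 7.30 in enalapril and 6.84, 6.04, 6.23 and 6.39 in the combination (-0.71, SE 0.29). Combination 1 exceeded enalapril 1. Zfp36, which degrades cytokine transcripts, had 8.63, 9.99 and 8.93 against 8.37, 8.79, 8.78 and 8.39 (-0.60, SE 0.33). Egr2, a zinc finger factor, had 6.47, 8.40 and 7.23 against 7.18, 5.82, 6.11 and 6.52 (-0.96, SE 0.57). In Zfp36 and Egr2 only enalapril 2 stood clearly above the rest.

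Egr1, the prototype of the class, had 8.67, 10.65 and 8.72 in enalapril and 8.74, 7.12, 7.37 and 7.88 in the combination (-1.57, SE 0.70, adjusted p = 0.907). Nr4a1, an orphan nuclear receptor, had 7.89, 9.90 and 8.61 against 8.003, 7.40, 7.85 and 7.76 (-1.05, SE 0.38). Fos, a partner in the AP-1 factor, had 5.90, 9.21 and 6.91 against 6.42, 5.35, 5.64 and 6.46 (-1.38, SE 0.77, -0.44 at its smallest over the alternatives).

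Junb, a partner of Fos, differed from these in that the groups did not overlap: 8.31, 8.96 and 8.29 against 7.86, 7.86, 7.76 and 7.81 (-0.70, SE 0.31). The combination arrays of Junb were 7.82 ± 0.05 (SD, n = 4), against 8.24 with vehicle and 8.40 with paricalcitol alone.

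**Figure D4:**
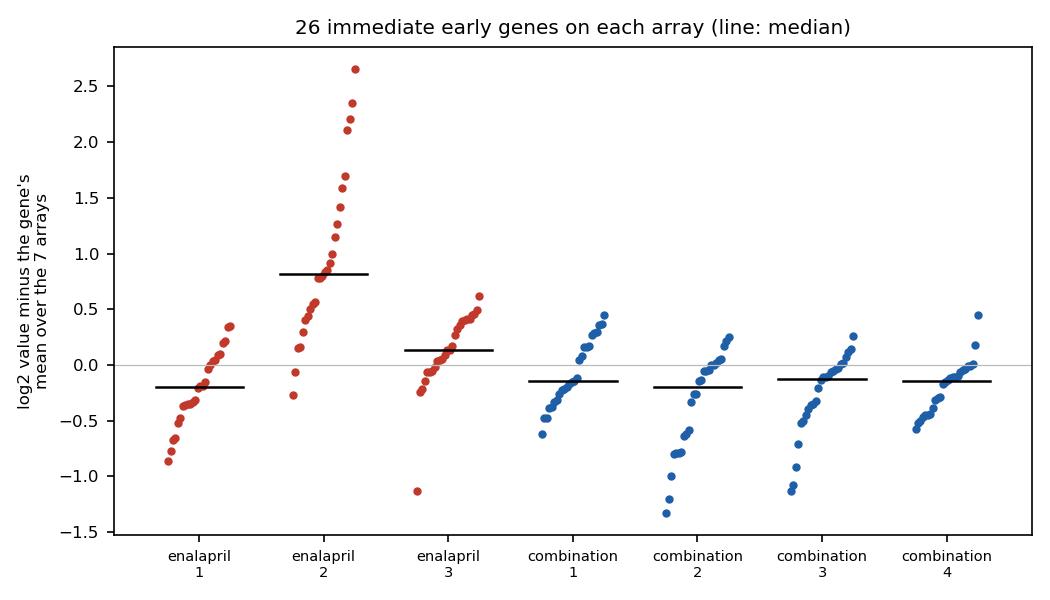
Each point is 1 of 26 immediate early genes on 1 array, as its log2 value minus that gene's mean over the 7 arrays; lines are medians. Enalapril 2 stands apart with a median of 0.82, while the combination arrays have medians of -0.20 to -0.12 and enalapril 1 has -0.20.

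Stress proteins and hormone-responsive genes had smaller list medians with single genes apart. Heat shock proteins were lower in 17 of 24 members (median -0.03, or -0.07 without combination 3). Hspb1, the small chaperone HSP27, had 12.76, 13.03 and 12.84 in enalapril and 12.52, 12.26, 12.72 and 12.28 in the combination, without overlap (-0.43, SE 0.17). Paricalcitol alone gave 0.42 (SE 0.16) over vehicle. Hspa1l, an HSP70 isoform whose transcript resembles those of neighbouring HSP70 genes, had 6.32, 6.85 and 7.30 against 6.12, 5.54, 5.60 and 6.12 (-0.98, SE 0.29, adjusted p = 0.903).

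Unfolded protein response genes were lower in 14 of 25 (median -0.08, or -0.04 without enalapril 3), with the chaperone cofactors Dnajc3 at -0.53 (SE 0.25) and Dnajb11 at -0.25 (SE 0.11). Proteasome subunits were higher in 28 of 32 members, by a median of 0.07. Without equalisation between arrays it was -0.09, which is 0.02 above the median of all genes. Without enalapril 3 the median was 0.03 with 22 higher, and without combination 2 it was 0.04 with 23 higher. Psma6 had 0.14 (SE 0.06), and Psmc3 had 0.16 (SE 0.07), or 0.00 without equalisation. With paricalcitol alone 27 of 32 were higher than vehicle, with a median of 0.11. In the insulin-like growth factor list 11 of 19 were higher, with a median of 0.07, or 0.00 without combination 4. It was -0.09 without equalisation, which is 0.02 above the median of all genes. Igf1r, the receptor, had 8.33, 8.71 and 8.21 in enalapril and 8.02, 7.74, 8.10 and 7.87 in the combination, without overlap (-0.48, SE 0.15, adjusted p = 0.903).

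Clock genes were higher in 11 of 16 members, with a median of 0.22. It was 0.14 without combination 2, 0.11 without combination 3 and 0.34 without combination 4. Per1, a clock repressor that glucocorticoids also raise, was at the floor on all enalapril arrays and on combination 1 and 4. It was 5.78 and 6.64 on combination 2 and 3 alone. Nfil3, a clock output repressor, had 7.38, 7.92 and 7.69 in enalapril and 7.54, 6.43, 6.02 and 6.89 in the combination (-0.94, SE 0.32). It was lowest on the same 2 arrays. Bhlhe41, another repressor, had 8.81, 8.34 and 8.56 against 9.06, 9.01, 9.13 and 8.56 (0.38, SE 0.16), and Per3 had 0.62 (SE 0.33). The hour of tissue collection is not given in the labels. Sgk1, a kinase induced by corticosteroids, had 9.53, 10.55 and 9.78 in enalapril and 8.88, 8.99, 8.96 and 9.59 in the combination (-0.85, SE 0.36). It had the lowest difference of the corticosteroid list, in which 9 of 21 members were higher and 10 lower. The median of that list was 0.00, or -0.15 without equalisation, which is 0.04 below the median of all genes.

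The same drug was also given without enalapril, in 4 rats against 4 given vehicle, which share no array with the groups above. That contrast called 2 of 14217 genes (0.0141%), the secreted peptide gene Ecrg4 and the proton pump subunit gene Atp6v1d. At an unadjusted p under 0.05 it had 1369 genes (9.63%). Over the 7108 brighter genes the paricalcitol difference with enalapril and that without it had a correlation of 0.10 across genes, which are not independent replicates. Of the 8 genes named above for being higher by size, 5 were also higher with paricalcitol alone, and of the 8 lower, 5 were lower. Myh6 and Rgs4 (0.65, SE 0.24) had a difference above 0.5 there, and Tbc1d10c (0.03) and Lynx1 (0.07) did not.

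Where enalapril and vehicle are set side by side, the enalapril mean was below the vehicle mean in 7 of the 8 higher genes and above it in all 8 lower genes. These genes were selected with the enalapril arrays, which fixes part of that direction. The test of whether the paricalcitol difference depended on enalapril called 0 genes (0.0%), with 991 at an unadjusted p under 0.05 (6.97%) and a smallest adjusted p of 0.113, in limma.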

How the data were processed

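Left ventricular RNA of 19 rats was measured on 1 array each. The authors deposited linear intensity values, 1 per probe set, and the sources used here name no tool for making them. On each array 16.0% to 18.2% of the values were negative, the mark of an earlier background subtraction, and medians of the 7 arrays ran from 43.9 to 61.0. Precision is limited by the number of arrays. The deposited intensities were quantile normalized over all arrays, negative values became 0, and the log2 of each value plus 16 was used. Of 31099 probe sets 20826 named 1 gene, 436 several and 9780 none, and 57 were controls. Each of 14217 genes was represented by its brightest probe set. With limma 3.58.1 (R 4.3.3), 1 mean per group was fitted over the 19 arrays, with a variance trend and Benjamini-Hochberg adjustment at 0.05. The procedure was tested on simulated data.

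Named genes were the 8 per direction with the largest difference among those with a mean of at least 7 and no overlap, the 3 per direction with the smallest p, up to 4 members per list by p, and a fixed panel. Fos was added after its values were seen. The comparison, members and lists were chosen with earlier results of these data known, and no list was tested. Replicate numbers were not used to pair the rats in the main fit, and whether they mark pairs is not settled here. Deviations of equally numbered enalapril and combination arrays correlated at -0.08, 0.06 and -0.13. Those of vehicle and paricalcitol arrays correlated at 0.22, 0.36, -0.13 and 0.12. Alternatives were other scalings, pseudocounts, filters, probe set averaging, only the groups compared, array weights, a red cell covariate, a replicate block and each array left out.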

Additional observations from a re-analysis of the deposited data

Results flagged for a closer look

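Of 141 gene and list values in the combination, 6 had 1 array far from the other three by Dixon's criterion, which flags about 1 group in 20 by chance. Ddit4l was highest on combination 2 at 8.52, against 7.70 to 7.81 on the others. Sgk1 was highest on combination 4 at 9.59. Pln was highest on combination 2 at 14.18, with the others between 14.07 and 14.09. The level of the atrophy and autophagy list was highest on combination 4 at 0.002, and that of the calcium handling list on combination 2 at 0.116. The endothelial marker level was lowest on combination 1 at -0.203, with the other arrays at 0.03 to 0.06.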

How the results depend on the processing

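The absence of called genes between the combination and enalapril held under most alternatives. A pseudocount of 1 gave 1 gene, Tnfrsf11a, whose enalapril arrays are at the floor. With an array left out 0 to 2 genes passed: Mov10l1 and Nell2 without enalapril 2, Tmed5 without enalapril 3, and 1700013D24Rik and Cuzd1 without combination 2. Genes at an unadjusted p under 0.05 numbered 350 with dimmer genes left out, where 7108 were tested. With the replicate block 0 passed, the smallest adjusted p was 0.0828 and 969 genes had an unadjusted p under 0.05. The red cell covariate also gave 0 in limma, with a smallest adjusted p of 0.163 and 914 genes at an unadjusted p under 0.05.

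For paricalcitol against vehicle, 1 gene passed without equalisation (Crygs), with cyclic loess (Ecrg4), with only the groups compared (Pde1b) and without the variance trend (Ecrg4). There were 71 after median centring, 9 with dimmer genes left out, 12 with the red cell covariate and 14 with the replicate block. Omissions gave 0 to 10. The cause was not tested. For the interaction 1 gene passed without equalisation (Crygs), with a pseudocount of 1 (Tnfrsf11a) and with the replicate block (C5ar1). Omissions gave 0 to 2: Mov10l1 and Nell2 without enalapril 2, and Lss without combination 3. The smallest adjusted p of that count ran from 3.54e-08 to 0.257 over the omissions.

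Of 1755 single gene values under the alternatives, 1730 kept their direction and stayed above the threshold, 2 passed (Tnfrsf11a and Cuzd1, named above) and 23 turned sign in 8 genes. Without equalisation Col3a1 was -0.084, Psmc3 -0.001, Acta1 -0.078 and Atp2a2 -0.051. Col1a1 was 0.013 with cyclic loess and 0.085 with the replicate block. Pln was 0.045 after median centring and 0.051 with cyclic loess. Over the omissions Col1a1 ran from -0.272 to 0.169, Col3a1 from -0.177 to 0.150, Fn1 from -0.623 to 0.054, Vdr from -0.086 to 0.242, Acta1 from -0.009 to 0.044, Atp2a2 from -0.001 to 0.062 and Pln from -0.038 to 0.033.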

Other observations

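Cell cycle genes were higher in 23 of 37 members (median 0.06, or -0.07 without enalapril 2), and their level ranged from -0.16 to 0.39 in the combination. Without equalisation between arrays their median was -0.04, which is 0.07 above that of all genes. Adipocyte markers were lower in 11 of 16 (median -0.06, or 0.06 without combination 1 and -0.15 without combination 2), with the adipokine gene Lep and the uncoupling protein gene Ucp1 at the floor on all arrays of both groups. Of 20 markers of smooth muscle and pericytes 14 were lower (median -0.05, or 0.04 with 11 higher without enalapril 1), while with paricalcitol alone 17 of 20 were higher than vehicle (median 0.19). Interferon-stimulated genes were higher in 9 of 24 (median -0.06), with a level of 0.36 on combination 2 and -0.25 on combination 1. Their median was -0.20 with 5 higher without combination 2 and 0.02 with 13 higher without combination 1.

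Genes of endothelin and nitric oxide signalling were higher in 9 of 19 (median -0.09, or -0.01 without enalapril 1 or combination 4), and those of adrenergic signalling in 13 of 22 (median 0.01, or -0.10 without equalisation and -0.01 without enalapril 2). Antioxidant genes were higher in 21 of 35 (median 0.05, or -0.10 without equalisation and 0.02 without enalapril 1). Endothelial markers were higher in 12 of 23 (median 0.01, or -0.15 without equalisation and -0.03 after median centring, and from -0.02 without combination 4 to 0.09 without combination 1). Without equalisation the adrenergic and antioxidant medians were each 0.01 above that of all genes, and the endothelial median 0.04 below it. In basement membrane genes 9 of 14 were lower (median -0.03, or -0.08 without combination 3). Cytosolic ribosomal protein genes were divided evenly, with 14 of 28 higher.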
